A study of Mus musculus with 4 samples.

Results

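Of the 24148 genes in the count table, 6 encode the chemokine and chemoattractant receptors Ccrl2, Cmklr1, Cxcr4, Cx3cr1, Ccr1 and Ccr2. They were picked by name, and each was read from its single RefSeq accession in the table. Their transcripts were counted by RNA sequencing of microglia, the macrophages that live in the brain, taken as primary cells from mouse mixed glial cultures by shaking and then replated. Microglia were given lipopolysaccharide (LPS, 10 ng/ml for 4 h, 2 libraries), the bacterial outer membrane component sensed by Tlr4, or were left as controls (2 libraries). The labels name neither strain, age nor sex, describe no sort for microglia, and leave unsaid if the replicates are separate cultures or animals. The p-values therefore cover the spread between these libraries only, which may be technical.

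Chemokine receptors are membrane proteins that couple to inhibitory G proteins and steer migrating leukocytes up a gradient of their ligand. Cx3cr1 binds fractalkine (Cx3cl1) and in the brain marks microglia, Cxcr4 binds Cxcl12, and Ccr1 and Ccr2 bind inflammatory CC chemokines such as Ccl3 and Ccl2. Cmklr1 is the signalling receptor of the chemoattractant chemerin, the product of Rarres2. Ccrl2 is an atypical receptor that binds chemerin and, in mouse cells, can present it to neighbouring cells that carry Cmklr1.

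The libraries held 5095630 and 4592474 counts in LPS replicates 1 and 2 and 3617176 and 4080568 counts in control replicates 1 and 2. Levels are given as CPM, counts divided by the TMM-scaled size of the library. A gene was tested by edgeR's quasi-likelihood test if its mean count over the 4 libraries was at least 10, and was called at a Benjamini-Hochberg adjusted p under 0.05 over all 9548 genes tested. The test called 625 genes higher and 171 lower in LPS (78.5% of calls higher, against 49.4% with total-count scaling, 61.9% after quantile normalization and 57.1% in a fit with the replicate number as a block, which called 30.7% of all genes tested). Without LPS replicate 1 the calls numbered 368, and without LPS replicate 2 they numbered 474, against 796 with all libraries. Of the defining microglia markers, Csf1r had 1707 and 1050 counts in LPS and 2566 and 1644 in control, whereas P2ry12 had 20 and 10 counts in LPS and 39 and 39 in control, and Tmem119 had 15 and 19 counts in LPS and 39 and 44 in control. Summed over 15 microglia markers, the level was 2595 and 2515 CPM in LPS and 3780 and 3576 CPM in control. Of the 12 tested markers 1 was called, lower in LPS, where 8.34% of all genes tested were called and 1.79% were called lower. Fewer cells of a type and less RNA per cell cannot be told apart in these bulk libraries.

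Ccrl2 rose and Cxcr4 fell after LPS, each by more than the spread between replicates, and they were the 2 members called of the 5 tested. Over all genes tested, 8.34% were called, 6.55% higher and 1.79% lower. Cmklr1, Cx3cr1 and Ccr1 did not pass the test, and Ccr2 lay under the count minimum. The LPS and control libraries did not overlap for 3 of the 5 tested members, Ccrl2, Cxcr4 and Ccr1, while 50.5% of all genes tested showed no overlap. Both LPS libraries lay above both controls for Ccrl2 and for 24.7% of all genes tested, and below both controls for Cxcr4, Ccr1 and 25.8% of all genes tested.

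**Figure D1:**
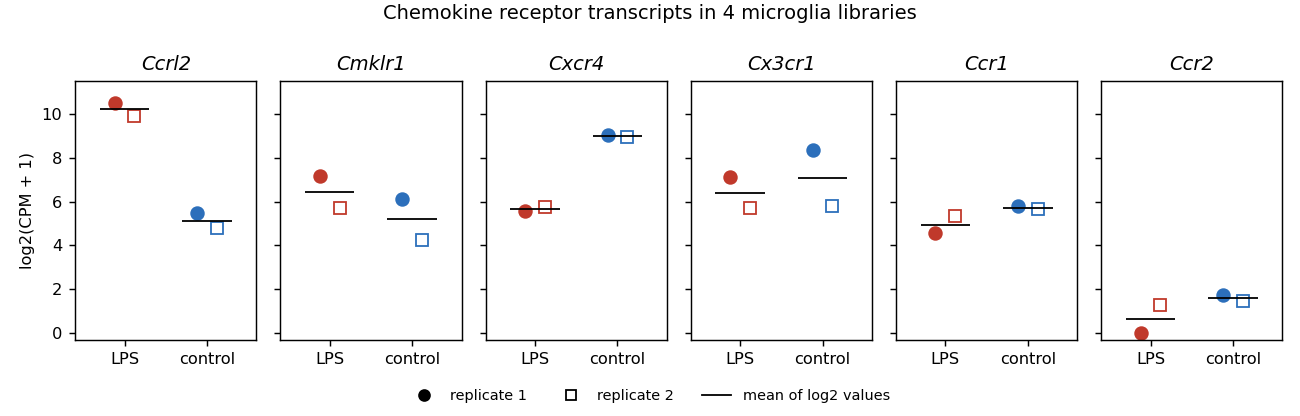
Levels of the 6 receptor transcripts in each library as log2(CPM + 1); red symbols are LPS libraries and blue symbols control libraries, circles are replicate 1, squares replicate 2, and bars the mean of the log2 values. The groups stand apart for Ccrl2 and Cxcr4, whereas Cmklr1 and Cx3cr1 are split by replicate number in both groups.

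Ccrl2 (chromosome 9, 111054834 to 111057518, minus strand, GRCm38) had 5979 and 4056 counts in LPS replicates 1 and 2 and 165 and 140 counts in control replicates 1 and 2. Scaled to depth this was 1428 and 973 CPM in LPS, against 43.4 and 26.9 CPM in control. Both LPS libraries lay far above both controls. The transcript averaged 1200 ± 321 CPM in LPS and 35.1 ± 11.6 CPM in control (SD, n = 2 each) and was 34.2-fold higher in LPS (log2 fold change 5.10 ± 0.37 SE, edgeR adjusted p = 0.0015). It ranked 85th of 9548 genes from the largest increase. The log2 ratio of LPS over control was 5.04 between the libraries numbered 1 and 5.18 between those numbered 2.

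Cxcr4 (chromosome 1, 128588199 to 128592299, minus strand) had 195 and 222 counts in LPS replicates 1 and 2 and 2029 and 2525 counts in control replicates 1 and 2. That corresponds to 46.6 and 53.2 CPM in LPS and 533 and 486 CPM in control, with a gap between the groups many times the distance between replicates. Its mean was 49.9 ± 4.73 CPM in LPS and 509 ± 33.8 CPM in control, and the transcript was 10.2-fold lower in LPS (log2 fold change -3.35 ± 0.21 SE, edgeR adjusted p = 8.7e-04). Only 8 of the 9548 tested genes had a larger fitted decrease. Between the libraries numbered 1 the log2 ratio was -3.52, and between those numbered 2 it was -3.19.

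The letters just upstream of the start sites of these 2 called genes are shown for reference, as 250 bases each from the RefSeq table of GRCm38.p6, read 5′ to 3′ on the minus strand. Capitals mark a match to the kappa-B consensus, the DNA element bound by NF-kB. The windows lie at chr9:111057519-111057768 for Ccrl2 and at chr1:128592300-128592549 for Cxcr4.
Ccrl2: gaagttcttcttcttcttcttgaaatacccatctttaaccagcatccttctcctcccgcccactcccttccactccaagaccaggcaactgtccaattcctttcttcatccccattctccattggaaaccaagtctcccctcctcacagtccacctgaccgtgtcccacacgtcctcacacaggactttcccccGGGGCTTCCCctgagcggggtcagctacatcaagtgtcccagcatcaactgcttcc
Cxcr4: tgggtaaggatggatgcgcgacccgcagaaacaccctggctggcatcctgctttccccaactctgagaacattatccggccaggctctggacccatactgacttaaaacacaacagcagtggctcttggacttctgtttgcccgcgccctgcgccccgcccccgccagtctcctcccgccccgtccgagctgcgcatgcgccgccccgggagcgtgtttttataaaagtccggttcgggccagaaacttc
The Ccrl2 window holds 1 match to the kappa-B consensus, GGGGCTTCCC, starting 56 bases upstream of the start site, and the Cxcr4 window holds none. Searched on both strands, the consensus occurred in 7.25% of 32817 mouse promoter windows of the same length. The interferon element core, which is GAAA and again GAAA with any 2 bases between, the AP-1 element TGANTCA and the PU.1 element GAGGAAGT had no match in either window, and occurred in 2.97%, 6.75% and 2.44% of all windows. Among the other 4 receptors, only the Ccr1 window held a kappa-B match, and none held the other elements. RefSeq lists 2 further start sites for Ccrl2, whose windows held no match. No match overlapped another, and a match or its lack describes these letters only.

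Cmklr1 (chromosome 5, 113612355 to 113650475, minus strand) had 607 and 214 counts in LPS replicates 1 and 2 and 261 and 94 counts in control replicates 1 and 2, that is 145 and 51.3 CPM in LPS and 68.6 and 18.1 CPM in control. The groups overlapped, since control replicate 1 exceeded LPS replicate 2. The mean was 98.1 ± 66.2 CPM in LPS and 43.3 ± 35.7 CPM in control, with a log2 fold change of 1.19 ± 0.74 and no call (edgeR adjusted p = 0.45). Within the libraries numbered 1 its log2 ratio of LPS over control was 1.08, and within those numbered 2 it was 1.51. Without control replicate 1 the log2 fold change was 2.42 and the gene was called (edgeR adjusted p = 0.027), and without LPS replicate 1 the value was 0.25 (adjusted p = 0.93). The transcript of its ligand chemerin, Rarres2, had 0 and 4 counts in LPS and 0 and 3 in control. Gpr1, another chemerin receptor, had 1 and 10 counts in LPS and 3 and 13 in control, also under the minimum for testing.

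Cx3cr1 (chromosome 9, 120048683 to 120068296, minus strand) had 584 and 211 counts in LPS replicates 1 and 2 and 1245 and 281 counts in control replicates 1 and 2. On the CPM scale these were 139 and 50.6 in LPS and 327 and 54.0 in control. Control replicate 1 was the highest library and the other control lay close to the lower LPS library, so that the groups overlapped. The mean was 95.0 ± 62.8 CPM in LPS and 191 ± 193 CPM in control, and the log2 fold change of -1.0 ± 0.88 was not called (edgeR adjusted p = 0.61). Its log2 ratio of LPS over control was -1.23 between the libraries numbered 1 and -0.09 between those numbered 2. The direction rested on control replicate 1: without it the log2 fold change was 0.79 (adjusted p = 0.47), whereas without control replicate 2 it was -1.82 and called (adjusted p = 0.033). The difference between the replicate numbers in the response itself could not be tested, since each holds 1 library per group.

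Ccr1 (chromosome 9, 123962126 to 123968692, minus strand), a receptor of Ccl3 and Ccl5, had 94 and 165 counts in LPS replicates 1 and 2 and 205 and 262 counts in control replicates 1 and 2. The levels were 22.4 and 39.6 CPM in LPS and 53.9 and 50.4 CPM in control. Both LPS libraries lay below both controls, and LPS replicate 2 came close to them. The mean was 31.0 ± 12.1 CPM in LPS and 52.1 ± 2.48 CPM in control, and the log2 fold change of -0.75 ± 0.32 was not called (edgeR adjusted p = 0.26). For the libraries numbered 1 the log2 ratio was -1.26, against -0.35 for those numbered 2.

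Ccr2 (chromosome 9, 124101918 to 124109140, plus strand), the receptor of Ccl2 that marks inflammatory monocytes, had 0 and 6 counts in LPS replicates 1 and 2 and 9 and 9 counts in control replicates 1 and 2. These are single-digit counts in every library, and the 0 in LPS replicate 1 allows up to 3 counts, or 0.716 CPM. Summed over libraries, 6 counts in LPS against 18 in control give a ratio of 0.359 after scaling, with a 95% interval of 0.117 to 0.944 (Clopper-Pearson) that covers counting error only and not the spread between libraries. The gene was not tested in the fit, and without a filter edgeR gave a log2 fold change of -1.35 with an adjusted p of 0.63. A set of 10 monocyte markers summed to 14.3 and 13 CPM in LPS and to 19.5 and 16.0 CPM in control. Of these, Ly6c2 had 1 and 4 counts in LPS and 0 and 2 in control, and Chil3 had 5 and 4 counts in LPS and 4 and 4 in control. F10 was at 0 in all libraries, but it has more than 1 accession in the table, as do 6 of the 10 markers, and such genes were often listed at 0. Reads that a receptor shares with a related gene cannot be traced in the counts.

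**Figure D2:**
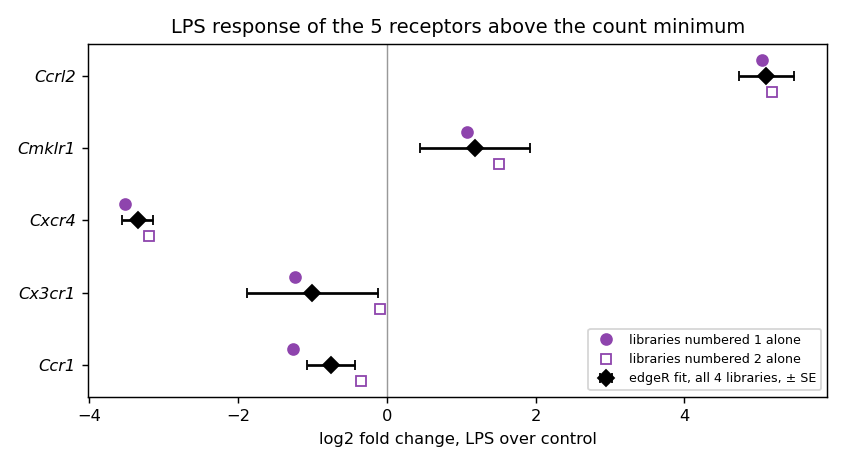
Log2 fold change of LPS over control for the 5 receptors tested: diamonds with bars are the edgeR fit ± SE, and purple circles and squares are the ratios of CPM between the 2 libraries numbered 1 and the 2 numbered 2. Ccrl2 at 5.10 and Cxcr4 at -3.35 have errors that are small beside their change, and like values in both numbers. By contrast, Cx3cr1 is at -1.23 in number 1 and -0.09 in number 2.

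The sign of the ratio was the same within both replicate numbers for all 5 tested members, as it was for 75.0% of all genes tested. The levels of Cx3cr1 and Cmklr1 differed between the numbers in both groups. Cx3cr1 was 2.76-fold higher in replicate 1 than in replicate 2 among the LPS libraries and 6.06-fold higher among the controls, and Cmklr1 was 2.82-fold and 3.80-fold higher. A difference of at least 2-fold towards replicate 1 in both groups was seen in these 2 of the 5 members tested and in 2.72% of all genes tested. No member was as much higher in replicate 2, as 3.47% of all genes were, and 6.19% of all genes differed that much in either direction. For Ccrl2 the ratio of replicate 1 to replicate 2 was 1.47 in LPS and 1.61 in control, for Cxcr4 it was 0.874 and 1.10, and for Ccr1 0.567 and 1.07. Markers of some other cells moved with the replicate number as well, but not those of every cell type. The 10 endothelium markers summed to 43.0 and 43.2 CPM in LPS and 46.0 and 45.4 CPM in control. The 15 microglia markers summed to 2595 and 2515 CPM in LPS and 3780 and 3576 CPM in control. Summed over 10 oligodendrocyte lineage markers the level was 434 CPM in LPS replicate 1 and 61.2 CPM in LPS replicate 2, and 421 CPM in control replicate 1 and 68.7 CPM in control replicate 2. Mag, a myelin protein, had 854 and 15 counts in LPS and 680 and 17 in control. The 10 border macrophage markers summed to 465 and 201 CPM in LPS and 539 and 205 CPM in control, led by the scavenger receptor Stab1 with 1310 and 457 counts in LPS and 1508 and 673 in control; Cd163 and Clec10a were at 0 throughout, each with more than 1 accession. In the other direction, 10 astrocyte markers summed to 178 and 481 CPM in LPS and 158 and 345 CPM in control. Much of this difference lay in Aqp4, with 14.3 and 209 CPM in LPS and 8.94 and 116 CPM in control. The astrocyte marker Atp1b2 was higher in replicate 1 in both groups. The 10 fibroblast and mural cell markers summed to 115 and 350 CPM in LPS and 103 and 322 CPM in control. Acta2 alone held 54.0 and 270 CPM in LPS and 53.9 and 264 CPM in control, while Cspg4 was higher in replicate 1 in both groups. The part of these cells in the levels of Cx3cr1 and Cmklr1 was not tested.

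**Figure D3:**
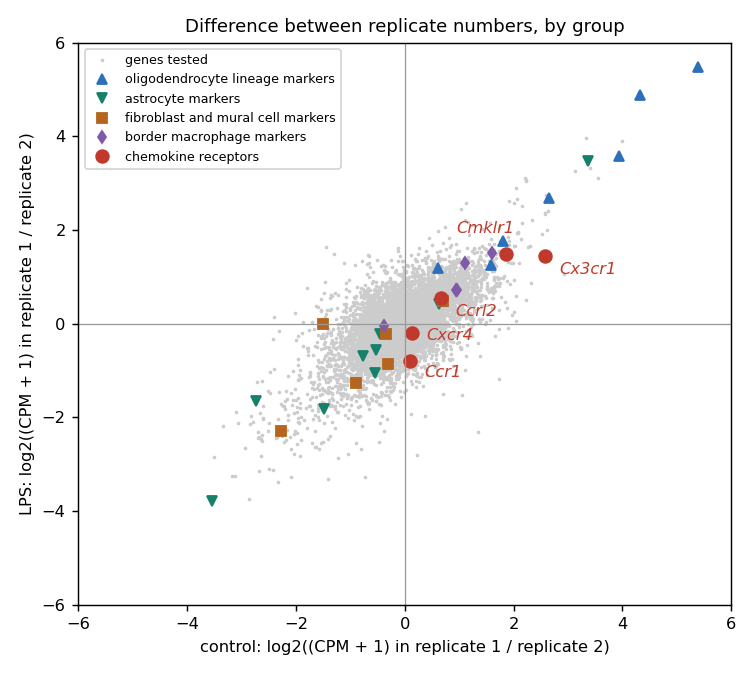
Each point is a gene placed by log2 of the ratio of replicate 1 to replicate 2, computed on CPM + 1, in control (x axis) and in LPS (y axis); grey points are all genes tested, red circles the 5 tested receptors and coloured shapes cell type markers. Cx3cr1 and Cmklr1 lie in the upper right with most oligodendrocyte lineage markers, while Cxcr4 and Ccrl2 lie nearer the centre.

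Divided by transcript length, the levels can be compared between receptors. The lengths were those of the matching GENCODE transcripts, from 1805 bases for Cxcr4 to 3753 bases for Cx3cr1. In LPS, Ccrl2 led with 488 ± 131 CPM per kilobase (SD, n = 2), followed by Cmklr1 at 34 ± 23.0, Cxcr4 at 27.6 ± 2.62 and Cx3cr1 at 25.3 ± 16.7 CPM per kilobase, which did not differ from each other beyond their spread, then Ccr1 at 10.9 ± 4.28 and Ccr2 at 0.240 ± 0.339 CPM per kilobase. In control, Cxcr4 led with 282 ± 18.7 CPM per kilobase, followed by Cx3cr1 at 50.8 ± 51.5, Ccr1 at 18.4 ± 0.875, Cmklr1 at 15.0 ± 12.4 and Ccrl2 at 14.3 ± 4.73 CPM per kilobase, which overlapped in their spread, and Ccr2 at 0.683 ± 0.150 CPM per kilobase. Ccrl2 made up 82.7% and 84.0% of the summed level per kilobase of the 6 receptors in LPS replicates 1 and 2, against 3.96% and 3.42% in control replicates 1 and 2. The share of Cxcr4 was 3.67% and 6.26% in LPS and 66.6% and 84.3% in control. Cx3cr1 held 5.30% and 2.86% in LPS and 19.6% and 4.51% in control.

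The genes whose profile lay nearest to that of each tested receptor were found by the Euclidean distance between mean-centred log2(CPM + 1) values over the 4 libraries. Nearest to Ccrl2 were Phf11a (distance 0.198) and the interferon-induced chemokine gene Cxcl9 (0.315), which had 276 and 145 CPM in LPS and 5.52 and 3.46 CPM in control. Phf11a had 174 and 129 counts in LPS and 2 and 0 in control, so that its distance rests on the 1 added to each CPM value. Cxcr4 was nearest to the sulfotransferase gene Chst10 (0.257) and the Wnt antagonist gene Dkk2 (0.302). Chst10 had 6.45 and 7.68 CPM in LPS and 87.8 and 63.1 CPM in control. For Cmklr1 the nearest genes were Pou3f1 (0.238) and Cdc42ep2 (0.358), for Cx3cr1 they were Map6d1 (0.505) and Ubqln2 (0.535), and for Ccr1 Prkdc (0.0818) and Ccdc134 (0.0819). Over all genes tested the median distance was 5.18 for Ccrl2, 3.34 for Cxcr4, 2.22 for Cmklr1, 2.29 for Cx3cr1 and 1.11 for Ccr1, so small distances for Ccr1 are common.

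Among 19 other chemokine receptor genes none was called, where 8.34% of all genes tested were, and 14 lay under the count minimum. Of these 14, 4 have more than 1 accession, and for such genes a low count is no safe measure of the level. The 5 tested, among them Cxcr2, Xcr1, Ccr4 and Cxcr6, had a median log2 fold change of -0.24, where the median over all genes tested was -0.05. Xcr1, the receptor of Xcl1 known from cross-presenting dendritic cells, had 110 and 76 counts in LPS and 35 and 36 in control, and the groups did not overlap, but it missed the threshold (log2 fold change 1.47, edgeR adjusted p = 0.059). Cxcr2, a receptor of neutrophil attractants, had 69 and 40 counts in LPS and 55 and 85 in control. Ccr4 had 9 and 15 counts in LPS and 7 and 38 in control, and Cxcr6 had 15 and 22 counts in LPS and 4 and 18 in control. Ccr3 had 14 and 2 counts in LPS and 5 and 3 in control, and Cxcr3 had 15 and 5 counts in LPS and 2 and 6 in control. Ackr1, the atypical receptor of red cells and venules, had 0 and 0 counts in LPS and 4 and 6 in control. The remaining 11, Ccr6, Ccr7, Ccr8, Ccr9, Ccr10, Ccr1l1, Cxcr1, Cxcr5, Ackr2, Ackr3 and Ackr4, held at most 6 counts in any library.

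Of 7 tested receptors among 14 for other leukocyte attractants, 2 rose and 1 fell, with a median log2 fold change of 0.44. Of the 7 not tested, 3 have more than 1 accession, so that their low counts are no safe measure of their levels. The shares among all genes tested were 6.55% called higher and 1.79% called lower. The formyl peptide receptors Fpr2 and Fpr1, which sense bacterial peptides, rose by 6.16 ± 0.26 and 4.90 ± 0.30 on the log2 scale (edgeR adjusted p = 3.6e-04 and 8.6e-04). Fpr2 had 302 and 356 CPM in LPS and 4.99 and 4.23 CPM in control. S1pr1, the receptor for the lipid S1P that guides lymphocyte exit from tissues, fell to 39.9 and 57.1 CPM in LPS, against 320 and 277 CPM in control (log2 fold change -2.62 ± 0.26, adjusted p = 0.0040).

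The ligands of the 6 receptors were mostly higher in LPS, with a median log2 fold change of 4.17. Of 13 tested, 8 were called higher, against 6.55% of all genes tested, and none was called lower. All 8 were CC chemokines, namely Ccl2, Ccl3, Ccl4, Ccl5, Ccl7, Ccl8, Ccl9 and Ccl12. Ccl2 and Ccl12, which act on Ccr2, rose by 7.86 ± 0.29 and 7.98 ± 0.53 on the log2 scale (edgeR adjusted p = 2.9e-04 and 0.0011). Ccl3 and Ccl5, which act on Ccr1, rose by 7.33 ± 0.65 and 9.68 ± 0.36 (edgeR adjusted p = 0.0027 and 2.9e-04). The related chemokine Ccl4 rose by 8.91 ± 0.31 (adjusted p = 2.9e-04). In control replicates 1 and 2, Ccl12 had 2 and 2 counts and Ccl5 had 8 and 9. Ccl2 had 17 and 25 there, Ccl4 31 and 30, and Ccl3 182 and 86. The fold sizes of Ccl12 and Ccl5 therefore rest on few control counts. Without control replicate 1 the log2 fold change of Ccl3 was 8.27, and without control replicate 2 it was 6.72. The call of Ccl8, another CC chemokine, was lost without LPS replicate 1 (3.22, adjusted p = 0.060). The ligand of Cxcr4, Cxcl12, had 18 and 20 counts in LPS and 13 and 36 in control over 3 accessions (log2 fold change -0.20, no call), and the ligand of Cx3cr1, Cx3cl1, had 58 and 101 counts in LPS and 32 and 25 in control (1.54, adjusted p = 0.11).

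**Figure D4:**
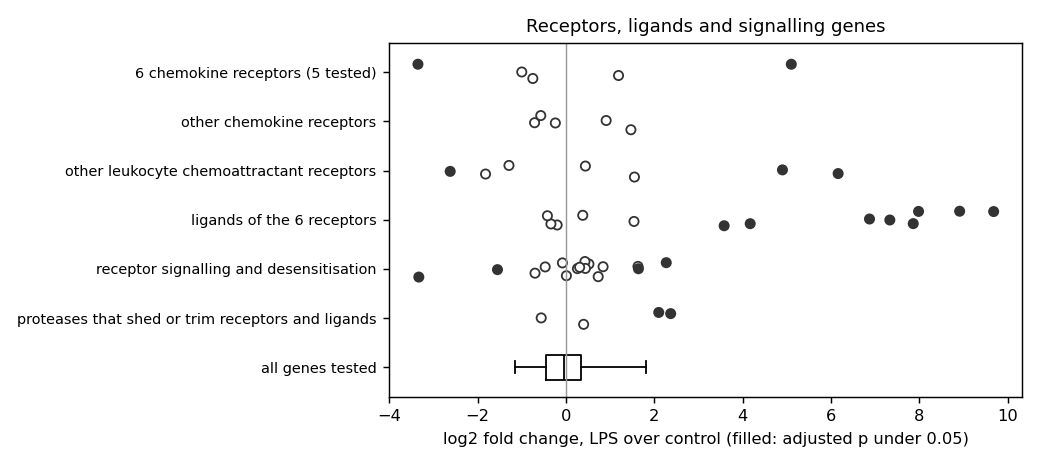
Log2 fold change of LPS over control for each tested gene of the receptor, ligand, signalling and protease lists, filled where called; the box shows the median and quartiles of all genes tested, with whiskers at the 5th and 95th percentiles. The ligand list reaches 9.68 for Ccl5, and the 6 receptors have called members on both sides of 0.

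Downstream of the receptors, 16 of 29 signalling and desensitisation genes were tested, of which 2 rose and 2 fell (median log2 fold change 0.37). Among all genes tested, 6.55% were called higher and 1.79% lower. Rgs2 and Rgs10, which switch off G proteins, fell by 3.33 and 1.55 on the log2 scale (edgeR adjusted p = 0.0044 and 0.012). Pik3r5, a regulatory subunit of the G protein-activated PI3 kinase, rose by 2.27 ± 0.24 (adjusted p = 0.0049), and Rac2, a GTPase that drives the actin cytoskeleton in leukocytes, by 1.64 ± 0.21 (adjusted p = 0.0089). The calls of Rgs10 and Rac2 were lost without LPS replicate 1 (-1.70, adjusted p = 0.066, and 1.67, adjusted p = 0.052) or LPS replicate 2 (-1.41, 0.099, and 1.62, 0.052). Of the 13 that were not tested, 12 have more than 1 accession, among them the arrestin gene Arrb2 and the receptor kinase gene Grk6, both at 0 in all libraries, and these 12 could not be read from the counts. Among 7 proteases that shed or trim receptors and ligands, 3 could not be read from the counts for the same reason, 1 of them at 0 in all libraries. The other 4 were tested and 2 rose, Mmp9 by 2.37 ± 0.36 and Mmp14 by 2.10 ± 0.33 (edgeR adjusted p = 0.017 and 0.019). Both calls were lost without LPS replicate 1 (2.09, adjusted p = 0.11, for Mmp9 and 1.94, adjusted p = 0.12, for Mmp14), and that of Mmp14 also without LPS replicate 2 (2.25, 0.054). Adam10, which sheds fractalkine, had 899 and 896 counts in LPS and 1181 and 1671 in control and was not called (-0.56, adjusted p = 0.14).

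**Figure D5:**
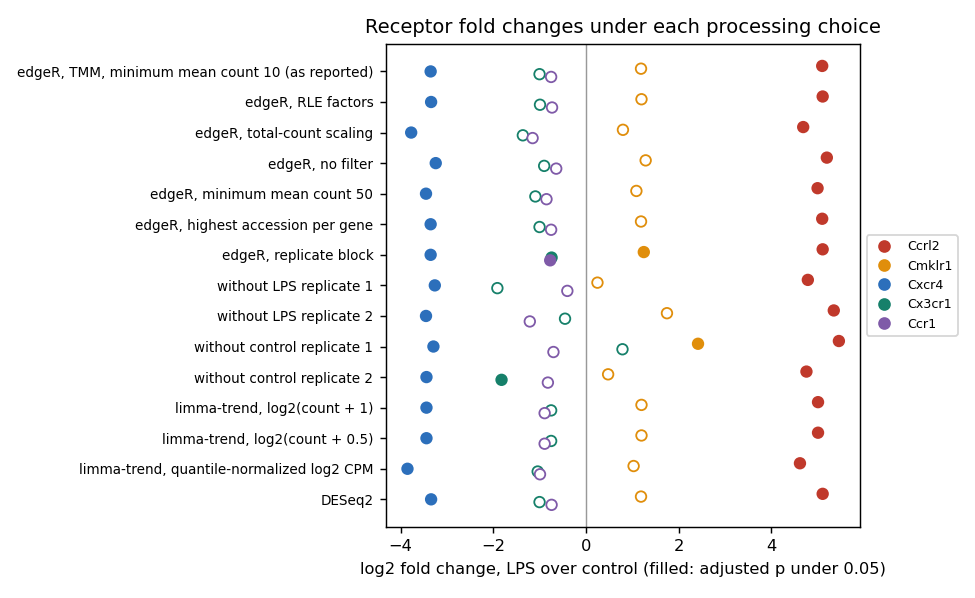
Log2 fold change of LPS over control of the 5 tested receptors (colours) in each of 15 settings (rows); filled circles have an adjusted p under 0.05. Ccrl2 and Cxcr4 are filled in every row, whereas Cx3cr1 runs from -1.91 to 0.79 with the library left out.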

How the data were processed

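Per the submitters' processing notes, the tools were HTSeq 0.6.1, TopHat2 2.0.10, Trimmomatic 0.33, CASAVA 1.8.2 and Cufflinks 2.2.1, with build mm10. The sources used here give no roles, annotation or strand setting. The authors deposited whole-number counts for 32915 RefSeq accessions in 4 libraries under a name that calls them normalized; the values show no rescaling and were treated as counts. 0 columns were left unused. Accessions were named with the RefSeq gene table of GRCm38.p6 (32483) and GENCODE metadata (191), 241 had no name, and counts were summed per gene. The receptors and gene lists were chosen with earlier results of these data known. LPS was compared with control in 1 edgeR fit (edgeR 4.0.16, R 4.3.3, TMM factors 0.822 and 0.908 for LPS, 1.05 and 1.27 for control), two-sided, with no covariate. Its common biological coefficient of variation was 0.283. The method was run on simulated counts with this same spread for all genes and, unlike these libraries, no difference between replicate numbers. A standard error is the log2 fold change over the square root of F. The 2 libraries of a group were not copies of each other (a chi-square over genes, divided by its degrees of freedom, was 25.4 in LPS and 34.3 in control). The alternatives used DESeq2 1.42.0, limma 3.58.1 with pseudocounts of 1 and 0.5, other scalings, filters and accessions, a replicate block, and each library left out. Named genes were the 6 members, up to 5 called genes with the largest change per list, other chemokine receptors with a count, and the 2 nearest profiles per member; further genes (microglia and cell type markers, Rarres2, Gpr1, Cx3cl1, Cxcl12, Adam10, Arrb2, Grk6) were added after their values were seen. The kilobase scale used GENCODE M21 transcript lengths. Exons of the 6 matched transcripts overlapped exons of 0 other annotated genes. The limma settings on log2(count + 1) and log2(count + 0.5) did not correct for depth. Single values of 2 genes of the lists are not reported here.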

Additional observations from a re-analysis of the deposited data

How the results depend on the processing

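Ccrl2 and Cxcr4 kept their direction and their call in all 14 alternatives, with log2 fold changes of 4.62 to 5.46 and of -3.85 to -3.24. Ccr1 kept its direction in all of them. Cx3cr1 reversed to 0.79 without control replicate 1. With a library left out, the log2 fold change ranged from -1.91 to 0.79 for Cx3cr1, from 0.25 to 2.42 for Cmklr1, from -1.21 to -0.40 for Ccr1, and from 368 to 826 for the number of genes called. With a library left out, the log2 ratio of Ccr2 from counts ranged from -1.72 to -0.47, where the value without LPS replicate 2 is a bound from 3 counts, and over the other scalings and the fit without a filter it ranged from -1.92 to -1.34; DESeq2, limma, the stricter filter, the accession choice and the block gave no value for Ccr2. Titles give both groups the replicate numbers 1 and 2. Deviations of same-numbered libraries from their group means correlated at 0.673 across genes. With 2 libraries per group, matching the numbers the other way gives the same size with the opposite sign. The value therefore cannot show that the numbers pair the libraries. No label names a shared culture, and the source of these deviations is not known. A replicate block in the edgeR fit gave 2935 calls (30.7% of those tested), among them Cx3cr1 (-0.74, adjusted p = 0.0032), Ccr1 (-0.77, 0.0041) and Cmklr1 (1.25, 1.5e-06). Cx3cr1 was also called without control replicate 2 and Cmklr1 without control replicate 1. The cause of these moves was not tested. Under total-count scaling all genes had a median of -0.48 (log2), and Ccr1 stood at -1.15 there. Ccr2 lay under the count minimum of the test. Without a filter its log2 fold change of -1.35 was not called (edgeR adjusted p = 0.63), and its few counts limit what can be read from it.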
